A study of Homo sapiens with 14 samples.

Results

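LTR5_Hs is the youngest class of long terminal repeat (LTR) of HERVK (HML-2), an endogenous retrovirus that entered the germ line of primate ancestors. The bulk RNA-seq tables listed 4570939 integrants of transposable elements (TEs) on GRCh37 (hg19), and 608 of them had LTR5_Hs in their name and neither LTR5B nor LTR5A. A further 6 integrants joined LTR5_Hs with LTR5B or LTR5A in 1 name and were left out. Of the 608, 565 had no internal retroviral part in their name and are called solo LTRs here. They measured 45 to 1934 bp, and the class thus holds short pieces. At least 1 of them (chr1:150605284-150605361) adjoins internal sequence that was listed apart. The other 43 were joined with HERVK-int, the internal part, and are called proviruses, although the name of some of them held only 1 LTR. The members were chosen by name and position alone, so that no measured value entered the choice.

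The values were reads per integrant in 12 libraries labelled as human embryonic stem cells (hESC) of the H9 line or their derivatives, although 4 of them did not match that line by the genes they expressed. Undifferentiated hESC, grown on Matrigel, gave 2 libraries, and their labels name no transgene. Endoderm was induced with Activin A (100 ng/ml, 3 days) and CHIR-99021, a GSK-3 inhibitor that switches on WNT signalling (5 μM on the first day, 0.5 μM on the second), in cells that carried a lentiviral dCAS9-KRAB. There were 3 control endoderm libraries with dCAS9-KRAB alone and 3 CRISPRi endoderm libraries with dCAS9-KRAB and the sgRNA against LTR5. Foregut cells, kept for 3 more days in a pancreatic differentiation medium, gave 2 control and 2 CRISPRi libraries. Differentiation and dCAS9-KRAB cannot be told apart between hESC and control endoderm. The paper states that its RNA-seq experiments had biologically independent replicates. No label says which libraries of a group came from separate cultures. The p-values measure the spread between libraries, part of which may be technical.

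A provirus is flanked by an LTR on each side, and recombination between them leaves a solo LTR. The LTR holds the promoter, the enhancers and the polyadenylation signal of the virus, and LTR5_Hs is known for activity in early embryos, in pluripotent cells and in primordial germ cells. Most LTRs are held silent by KRAB zinc finger proteins, which bring in TRIM28, the H3K9 methyltransferase SETDB1 and DNA methylation. dCAS9-KRAB is a Cas9 that does not cut, fused to a KRAB domain, and it brings the same machinery to the sites that match its sgRNA.

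The sgRNA was designed on the LTR5B consensus, and its match divides the LTR5_Hs integrants. Its 20 bases with the NGG motif that Cas9 needs are printed below 5′ to 3′ from GRCh37, with every base that departs from the guide in capitals and positions counted from 1 at the 5′ end of the guide. In the 3 lines of named LTRs the position of the site follows the name.

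perfect site: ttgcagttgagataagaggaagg

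T13C site: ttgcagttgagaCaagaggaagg

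A12G site: ttgcagttgagGtaagaggaagg

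solo LTR beside HLA-DQB1, chr6:32625385-32625407, minus strand: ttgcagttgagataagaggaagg

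solo LTR beside NCBP2AS2, chr3:196671416-196671438, plus strand: ttgcCgttgaAaCaagaggaagg

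solo LTR in the NLRP7 intron, chr19:55455559-55455581, plus strand: ttgcagttAagaGGaAGgTatct

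The T13C form was the most frequent. Among the 565 solo LTRs, 254 had a T13C site as their best match, 120 a perfect site, 41 another site with 1 mismatch, 48 a site with 2 mismatches and 75 no site within 2 mismatches, while 27 lie on sequences not used here. The proviruses were mostly of the T13C form (30 of 43, with 6 perfect). The LTR beside NCBP2AS2 differed from the guide at A5C, G11A and T13C, and the best match in the LTR of the NLRP7 intron had 6 mismatches (G9A, T13G, A14G, G16A, A17G and G19T) and no NGG. Those LTRs thus had no site. The perfect and T13C forms marked LTRs of different sequence: identity to the majority sequence of full-length solo LTR5_Hs had a median of 87.3% for LTRs with a perfect site and 96.5% for those with T13C. A share of 83.1% of the windows of 75 bases in a perfect-site LTR was found in no other LTR5, HERVK-int or SVA integrant, against 44.6% for T13C (medians). Only uniquely mapped reads were counted, and 26.0% of the T13C and 19.2% of the perfect-site solo LTRs had a read.

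The base at position 13 also lies in a GATA motif. The letters AGATAA, which GATA factors such as GATA4 and GATA6 bind, fill positions 10 to 15 of the guide, printed here with the motif in capitals, and T13C removes them.

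GATA motif in the perfect site: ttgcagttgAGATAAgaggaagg

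All 120 solo LTRs with a perfect site therefore held AGATAA, against 52 of 254 with T13C. On either strand of LTRs of near full length, AGATAA stood in 50.22% of 456 LTR5_Hs, 69.11% of 246 LTR5B, 22.92% of 192 LTR5A and 58.59% of 39546 other integrants of like length. The octamer ATTTGCAT, bound by POU5F1 (OCT4), stood in 0% of LTR5_Hs, 0.41% of LTR5B, 0% of LTR5A and 21.63% of the other integrants. The letters ACAATGG, a form of the SOX motif, stood in 2.41%, 2.85%, 3.65% and 23.53% of the same classes, so that both motifs were rare in all 3 LTR5 classes. These are matches of letters in the reference and not sites of binding.

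Depth was low for single integrants. The libraries held between 11583063 and 37152434 gene reads and between 141 and 491 reads in LTR5_Hs integrants, so that 1 read was a large step, and values are given as reads per 1000000 gene reads (RPM). Mitochondrial genes took 8.3 to 34.66% of gene reads. The endoderm markers (SOX17, FOXA2 and 7 others) summed to 5564.8 to 6170.2 CPM, gene counts on the same scale, in control endoderm and to 31.5 to 42.7 in hESC, where 3 of the 9 were at 0. The foregut markers summed to 440.6 to 513.2 CPM in control foregut, 136.0 to 147.3 in control endoderm and 163.7 to 190.3 in hESC, with NKX2-1 at 0 in foregut. SOX2, also a pluripotency gene, held 180.2 and 149.25 CPM of the sum in control foregut. Of 10 foregut markers tested in control foregut against control endoderm, 3 were called higher and 1 lower (14.1% and 15% of all genes).

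The foregut libraries stood apart in ways that touch every result drawn from them. Their status labels read hESC for the controls and endoderm without sgRNA for the CRISPRi libraries, and the groups here follow the titles. By genes that tell cell lines apart, 4 of the 12 libraries did not match the labelled line. Reads on integrants came in clumps: of the integrants with at least 10 reads in 1 foregut library, 51.9 to 81.1% had 0 in its replicate, against 0.1 to 3.8% in the 8 other libraries. Among LTR5_Hs integrants with at least 10 reads, this was so for 5 of 12, 7 of 13, 5 of 6 and 1 of 4 in the 4 foregut libraries and for 0 in all others. Tissue, cell line, deposit and this property of the libraries cannot be told apart in any difference between foregut and endoderm.

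LTR5_Hs reads came from few integrants. Only 140 of the 608 members (118 solo, 22 proviral) had any read in the 12 libraries together, and 40 had at least 10. The total was 3528 reads, 2472 in solo LTRs and 1056 in proviruses. A single provirus beside PRODH gave 54.0% of the proviral reads and the top 5 gave 92%, whereas the top solo LTR gave 11.9% and the top 5 gave 43.2%.

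Proviral reads were highest in hESC and fell to near 0 in foregut. They measured 9.39 and 13.30 RPM in hESC, 7.22, 6.22 and 6.35 in control endoderm, 2.64, 2.65 and 1.90 in CRISPRi endoderm, 0.70 and 0.03 in control foregut, and 0.41 and 0.00 in CRISPRi foregut. The ranges of hESC, control endoderm, CRISPRi endoderm and foregut did not overlap. Control foregut was lower than control endoderm by 4.14 on the log2 scale (SE 0.81, edgeR adjusted p = 0.00295, 27% of all TE names called). Without the exon-overlapping proviruses the difference was -6.01 (edgeR adjusted p = 0.0647). Exon-overlapping proviruses held 994 of the 1056 proviral reads. Those outside exons had 6 and 19 reads in hESC, 10, 4 and 4 in control endoderm and 3, 3 and 0 in CRISPRi endoderm. The order of hESC and endoderm and the difference with the sgRNA thus rest on exon-overlapping proviruses. The sgRNA in endoderm went with 2.67-fold lower proviral reads (log2 -1.42, SE 0.33, unadjusted p = 0.0002), which did not pass after adjustment over 1229 names (edgeR adjusted p = 0.0702). No TE name was called in that comparison (0%). The adjusted p was under 0.05 with DESeq2 (0.023), with TE library sizes (0.0134) and without CRISPRi replicate 1 (0.00965), and reached 1 without another library. Differentiation gave -0.70 (SE 0.30, edgeR adjusted p = 0.0908, 18.7% of names called), and this difference turned to 0.74 (edgeR adjusted p = 0.119) without the provirus beside PRODH: the other proviruses together measured 2.61 ± 0.2 RPM in hESC (SD, n = 2) and 4.14 ± 0.29 in control endoderm (n = 3).

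No difference of the summed solo LTRs passed the test. They measured 9.13 and 8.47 RPM in hESC, 11.59, 13 and 10.99 in control endoderm, 7.86, 9.98 and 11.91 in CRISPRi endoderm, 8.39 and 8.72 in control foregut, and 4.02 and 8.99 in CRISPRi foregut. Control endoderm lay above hESC without overlap (log2 0.50, SE 0.30, edgeR adjusted p = 0.264), and the CRISPRi and control ranges overlapped in both tissues (endoderm -0.24, edgeR adjusted p = 0.922, foregut -0.43, edgeR adjusted p = 0.997, where 0.0833% of TE names were called). Whether the sgRNA acted differently in the 2 tissues was tested as an interaction, which gave 0.77 (SE 1.42, unadjusted p = 0.596) for proviruses and -0.20 (SE 0.51, unadjusted p = 0.697) for solo LTRs. In such bulk samples, fewer expressing cells and less RNA per cell cannot be told apart.

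The provirus beside PRODH (chr22:18926187-18935361) was the most read member and led the decline. It is a full provirus of 9175 bp with LTRs on both sides, each with a T13C site (chr22:18926653-18926675 and chr22:18934860-18934882), and it lies 2.1 kb from the start of PRODH, which encodes proline dehydrogenase, the first enzyme of proline breakdown. It overlaps exons of ENSG00000283809 and of the lncRNA ENSG00000284294, so that it entered only the fits that keep exon-overlapping integrants. It had 163 and 238 reads in hESC, 62, 50 and 31 in control endoderm, 7, 7 and 11 in CRISPRi endoderm, 0 and 1 in control foregut and 0 in both CRISPRi foregut libraries. Each of these groups lay below the one before it without overlap, except in foregut. It fell from hESC to control endoderm (log2 -1.75, SE 0.41, edgeR adjusted p = 0.00101) and from there to foregut (-7.02, SE 1.09, edgeR adjusted p = 1.07e-08). CRISPRi endoderm was 4.32-fold lower than its control (-2.11, SE 0.52, edgeR adjusted p = 0.105), which did not pass. Of its 75-base windows only 19.5% were found nowhere else in the family.

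PRODH mRNA itself measured 35.43 and 41.36 CPM in hESC, 12.76, 23.27 and 14.11 in control endoderm, 1.74, 4.02 and 4.32 in CRISPRi endoderm, 9.86 and 19.97 in control foregut and 3.58 and 0.38 in CRISPRi foregut. CRISPRi libraries lay below their controls without overlap in both tissues. PRODH fell with the sgRNA in endoderm (log2 -2.31, SE 0.33, edgeR adjusted p = 0.0373) and in foregut (-2.71, SE 0.62, edgeR adjusted p = 0.00912). It fell from hESC to control endoderm as the provirus did (-1.12, SE 0.24, edgeR adjusted p = 0.0017), but control foregut and control endoderm did not pass for the gene (-0.18, SE 0.37, edgeR adjusted p = 0.718) while the provirus was at 0 and 1 read. The endoderm fall was past 0.05 in DESeq2 and in the blocked fit but not in voom (0.0585) or in 4 of the 6 fits that left out a library (0.0232 to 0.188), and that in foregut only without CRISPRi replicate 1 (1.13e-07) or with crossed pairs (0.000101).

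Other proviruses had another order of groups. That beside ENSA (chr1:150607126-150608361), listed as an internal fragment with 1 LTR and a perfect site, had 31 and 26 reads in hESC, 38, 46 and 28 in control endoderm, 21, 27 and 5 in CRISPRi endoderm, 11 and 0 in control foregut and 0 in CRISPRi foregut. In RPM, control endoderm was the highest group and CRISPRi endoderm lay below it without overlap, but only the fall to foregut passed (log2 -3.43, SE 0.90, edgeR adjusted p = 0.00383), with -0.85 (SE 0.49, edgeR adjusted p = 0.656) for the sgRNA. It overlaps an exon of the lncRNA ENSG00000288880. A HERVK-int piece listed apart (chr1:150605362-150607138) overlaps its start, with an LTR5_Hs piece on the far side, so that it may be part of a longer provirus.

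The provirus 9.1 kb from THEG (chr19:385095-387637, T13C) was read in endoderm only. It had 0 reads in both hESC libraries, 6, 20 and 11 in control endoderm, 1, 1 and 0 in CRISPRi endoderm and 0 in all 4 foregut libraries. It rose from hESC to control endoderm at least 9.76-fold, against a floor of 3 reads over the hESC group (edgeR adjusted p = 0.000194), and foregut was at least 14.8-fold lower than control endoderm (edgeR adjusted p = 0.0183). The sgRNA difference was -3.72 (SE 1.0, unadjusted p = 0.000202), with CRISPRi and control endoderm not overlapping, and it did not pass (edgeR adjusted p = 0.235). It overlaps an exon of the lncRNA ENSG00000286667, and THEG had no counts in any library. A MER113, another TE, lies 361 bp away (chr19:384550-384734), overlaps an exon and was also read in endoderm only. It had 5, 7 and 4 reads in control endoderm and 0, 5 and 0 in CRISPRi endoderm.

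Of the remaining proviruses named, those beside RPL24 (chr3:101410737-101419859) and 41.3 kb from TREH (chr11:118591724-118600883), both full and both T13C, held between 0 and 18 reads per library. The RPL24 provirus had 12 and 10 reads in hESC, 18, 10 and 15 in control endoderm and 12, 9 and 3 in CRISPRi endoderm, which overlapped. The TREH provirus had 6, 4 and 10 reads in control endoderm and 0, 4 and 0 in CRISPRi endoderm (log2 -2.13, SE 1.04, edgeR adjusted p = 0.656). Pieces of another endogenous retrovirus, HERVH with its LTR7, lie 1 bp away on each side. The piece at lower coordinates had 35 and 24 reads in hESC, 9, 23 and 10 in control and 0, 4 and 0 in CRISPRi endoderm. That on the other side had 0 in hESC and 0, 2 and 0 in control endoderm. In SLC44A5, a choline transporter-like gene, an antisense provirus (chr1:75842771-75849143) had 1 and 4 reads in hESC and 0 elsewhere. In an intron of CR1, the complement receptor, another (chr1:207808457-207812636, with A5T and T13C) had 13 reads, all in CRISPRi foregut replicate 1, with 0 in its replicate. The T13C proviruses beside NEPRO (chr3:112743124-112752282) and in an intron of TRPC6, a cation channel, (chr11:101565794-101575259, antisense) had at most 7 and 4 reads in a library and none in foregut.

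The solo LTR beside HLA-DQB1 was the only member called with the sgRNA in endoderm. It is a minus-strand LTR of 958 bp (chr6:32624903-32625860) with a perfect site, outside any annotated exon, 10.3 kb from the start of HLA-DQB1, which encodes the beta chain of the MHC class II molecule HLA-DQ. It had 8 and 3 reads in hESC, 39, 52 and 26 in control endoderm, 2, 7 and 5 in CRISPRi endoderm, 0 and 9 in control foregut and 0 in CRISPRi foregut. In RPM, control endoderm lay above hESC and above CRISPRi endoderm without overlap. It rose 8.53-fold from hESC to control endoderm (log2 3.09, SE 0.65, edgeR adjusted p = 0.000157), where 4 of 30 members tested were called against 3.78% of all integrants tested outside exons. With the sgRNA it was 6.55-fold lower (-2.71, SE 0.61, edgeR adjusted p = 0.0293), as 1 of 26 members tested against 0.0254% of all integrants. Foregut was lower than control endoderm (-4.01, SE 0.96, edgeR adjusted p = 0.00116, under 0.05 in 7 of 13 alternatives and up to 0.591).

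The call with the sgRNA depended on the setting more than its size did. The log2 difference stayed between -2.98 and -2.37 in 14 alternatives, but the adjusted p was under 0.05 in 6 of them. It was 0.082 with DESeq2, 1 when all groups were fitted together, and between 0.0626 and 0.63 when any of the 6 libraries was left out. Because 93.9% of the windows of this LTR are found nowhere else in the family, its reads can be placed.

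HLA-DQB1 mRNA was likewise highest in control endoderm. It measured 9.01 and 5.81 CPM in hESC, 213.62, 156.68 and 164.57 in control endoderm, 34.69, 52.26 and 36.35 in CRISPRi endoderm, 11.37 and 9.85 in control foregut and 4.46 and 4.23 in CRISPRi foregut. With the sgRNA in endoderm it fell 4.28-fold (log2 -2.10, SE 0.20, edgeR adjusted p = 0.00212, at most 0.0411 in 9 alternatives). In foregut the difference was -1.26 (SE 0.61, edgeR adjusted p = 1), without overlap of the groups. The LTR and the gene differed in order elsewhere: from hESC to control foregut the mean of the LTR went from 0.24 to 0.12 RPM while the gene was at higher CPM in both foregut libraries. A solo MER11C, an LTR of another HERVK group, lies 311 bp from this LTR (chr6:32623524-32624592) and was also read most in control endoderm among the hESC and endoderm groups, with 10 and 3 reads in hESC, 54, 26 and 29 in control endoderm, 3, 6 and 2 in CRISPRi endoderm, 5 and 42 in control foregut and 0 in CRISPRi foregut. HLA-DQ genes differ between haplotypes, and reads of another haplotype may not map to the reference.

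A pair of solo LTRs had reads in endoderm, with or without the sgRNA, and none in hESC. The LTR in an intron of NLRP7 (chr19:55455104-55456032, antisense to the gene and 8.5 kb from the start of NLRP2) has no sgRNA site. It had 0 reads in both hESC libraries, 37, 36 and 26 in control endoderm, 29, 45 and 21 in CRISPRi endoderm, 11 and 0 in control foregut and 6 and 0 in CRISPRi foregut. Control endoderm was at least 26.3-fold higher than hESC (edgeR adjusted p = 4.6e-10), whereas control and CRISPRi endoderm overlapped (log2 0.21, SE 0.49, edgeR adjusted p = 0.861). NLRP7, an inflammasome-related gene needed in the oocyte, measured 0.59 and 0.53 CPM in hESC and 0.46, 0.46 and 0.79 in control endoderm. On the side of lower coordinates, 10 Alu and MER63A pieces within 3 kb also had 0 reads in hESC and reads in endoderm, among them an AluSx1 with 19, 8 and 4 in control and 12, 20 and 7 in CRISPRi endoderm.

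The LTR in an intron of DET1, a ubiquitin ligase adaptor, (chr15:89083783-89084750, antisense, T13C) had 0 reads in hESC, 10, 14 and 14 in control endoderm, 18, 10 and 10 in CRISPRi endoderm and 0 in foregut. It was at least 10.3-fold higher in control endoderm than in hESC (edgeR adjusted p = 0.000186) and at least 15.6-fold lower in control foregut than in control endoderm (edgeR adjusted p = 0.017, under 0.05 in 6 of 13 alternatives and up to 0.788), with 0.32 (SE 0.61, edgeR adjusted p = 0.835) for the sgRNA. This LTR5_Hs sits inside another provirus: 1 bp away on each side lie pieces of HERVS71 with its LTR6B, which had 473, 742 and 692 reads on one side and 2497, 3808 and 3024 on the other in control endoderm, and 0 in hESC. DET1 mRNA went the other way, with 8.71 and 7.49 CPM in hESC and 3.05, 3.34 and 3.79 in control endoderm (log2 -1.19, SE 0.27, edgeR adjusted p = 0.0027).

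A solo LTR 1.4 kb from NCBP2AS2 (chr3:196670951-196671899, no sgRNA site) was the only member outside exons called lower in endoderm than in hESC. It had 45 and 50 reads in hESC, 4, 7 and 7 in control endoderm, 0, 9 and 6 in CRISPRi endoderm, 17 and 35 in control foregut and 8 and 0 in CRISPRi foregut. It fell 6.10-fold (log2 -2.61, SE 0.61, edgeR adjusted p = 0.000941) and had -0.00 (SE 0.87) for the sgRNA in endoderm. NCBP2AS2 measured 24.64 and 21.99 CPM in hESC, 9.92, 12.96 and 12.95 in control endoderm (log2 -0.90, SE 0.23, edgeR adjusted p = 0.00533, under the 2-fold limit) and 23.44 and 29.61 in control foregut.

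Perfect-site solo LTRs in or near NBPF genes, a family multiplied in primates, overlapped between CRISPRi and control endoderm. The LTR 8.8 kb from NBPF20 (chr1:148356350-148357322) had 23, 33 and 11 reads in control and 12, 21 and 8 in CRISPRi endoderm (log2 -0.41, SE 0.56, edgeR adjusted p = 0.751), and 23 and 10 in control against 1 and 0 in CRISPRi foregut, which did not overlap and did not pass (edgeR adjusted p = 0.66). The LTR in an NBPF15 intron (chr1:148565786-148566758) had 11, 11 and 11 reads in control and 6, 15 and 4 in CRISPRi endoderm and 0 in foregut. Only 31.4% and 31.8% of their windows are found nowhere else in the family. The perfect-site LTR in an intron of SSBP1, a mitochondrial DNA-binding protein (chr7:141450926-141451903, in sense), had 9 and 5 reads in hESC, 0, 2 and 2 in control and 1, 0 and 3 in CRISPRi endoderm, and SSBP1 mRNA fell from hESC to endoderm (log2 -1.11, SE 0.23, edgeR adjusted p = 0.00139).

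Other named solo LTRs, apart from the one beside NRBP2, had reads in every group. The LTR in introns of ZNF808 and ZNF701, KRAB zinc finger genes of chromosome 19 (chr19:53061950-53062914, in sense, A12G), had 16 and 15 reads in hESC, 8, 19 and 7 in control endoderm, 11, 14 and 12 in CRISPRi endoderm, 0 and 33 in control foregut and 9 and 52 in CRISPRi foregut. This LTR also overlaps an exon of the lncRNA ENSG00000289102. The LTR 72.0 kb from LPCAT1 (chr5:1596092-1597059, T13C) had 14 and 8, then 7, 10 and 6, then 7, 4 and 9, then 32 and 8, then 16 and 49 reads in the same order of groups. On chromosome 8 the T13C LTR 1.3 kb from PUF60, a splicing factor, had the most reads of any solo LTR (295), with 14 and 27 in hESC, 17, 14 and 22 in control and 19, 27 and 14 in CRISPRi endoderm, 51 and 26 in control foregut and 8 and 56 in CRISPRi foregut. The PUF60 LTR overlaps an exon of the lncRNA ENSG00000287222. The T13C LTR 8.7 kb from NRBP2 was the only member called higher in foregut than in endoderm, with 66 and 12 reads in control foregut against 0, 0 and 2 in control endoderm (log2 4.85, SE 1.40, edgeR adjusted p = 0.0139). The adjusted p was under 0.05 in 5 of 13 alternatives and reached 0.683. An AluSz 4065 bp from this LTR had 55 and 82 reads in control foregut, 25 and 0 in CRISPRi foregut and 0, 1 and 0 in control endoderm. An LTR81B piece 877 bp away and an L2a piece 6255 bp away had 0 reads in control foregut.

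Counts over the members stood near or above those of all integrants. Between hESC and control endoderm 3 members were called higher (those of HLA-DQB1, the NLRP7 intron and the DET1 intron) and 1 lower, and 13 of 30 fitted differences were above 0 (median -0.17). With exon-overlapping integrants kept, 6 of 41 were called against 4.56% of all. In endoderm with the sgRNA, 16 of 26 differences were below 0 (median -0.47), and 1 was called with exon-overlapping integrants kept as well (36 tested, 0.0313% of all). In foregut with the sgRNA no member was called by edgeR (0 of 21, 0.00595% of all), none had an unadjusted p under 0.05, and DESeq2 and voom called 0. With exon-overlapping integrants kept it was 0 of 27 (0.00713% of all). Between control foregut and control endoderm 5 of 29 were called, 4 lower and 1 higher, against 5.27% of all, while DESeq2 called 0 and voom 3. With exon-overlapping integrants kept, 8 of 41 were called, 7 of them lower, against 6.08%. For the interaction of sgRNA and tissue no member was called by edgeR (0 of 38, 0.0162% of all, 0 at an unadjusted p under 0.05), and voom called 1.

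Groups that do not overlap were counted too. From hESC to control endoderm, 7 members of 30 were higher in every library (8.86% of all integrants) and 3 lower (15%). With the sgRNA in endoderm, 0 of 26 were higher (3.03%) and 1 lower (2.56%), and in foregut 0 of 21 were higher (3.71%) and 3 lower (4.92%). Control foregut against control endoderm gave 3 of 29 higher (12.6%) and 9 lower (8.05%). The control endoderm libraries enter several of these comparisons, which are therefore not independent.

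Sorted by sgRNA site, reads in endoderm lay lower with the sgRNA for perfect-site solo LTRs and for proviruses with a perfect or T13C site. In foregut they lay lower for perfect-site solo LTRs, for T13C proviruses (0.37 and 0.03 RPM in control) and for solo LTRs without a site. Perfect-site solo LTRs summed to 3.31 and 1.91 RPM in hESC, 4.53, 5.71 and 3.72 in control endoderm, 1.44, 2.80 and 2.50 in CRISPRi endoderm, 0.70 and 2.07 in control foregut and 0.44 and 0.00 in CRISPRi foregut. CRISPRi lay below control without overlap in both tissues, with a log2 ratio of means of -1.05 in endoderm and -2.66 in foregut. These are sums described without a test. In endoderm the ratio became -0.45 without the LTR beside HLA-DQB1, and the CRISPRi and control ranges then overlapped. The endoderm ratio was -0.41 with sites of up to 1 mismatch. The foregut ratio rested on 23 and 77 reads against 14 and 0.

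Solo LTRs with a T13C site summed to 4.02, 3.72 and 4.09 RPM in control and 3.30, 3.21 and 5.01 in CRISPRi endoderm, and to 6.25 and 4.82 in control and 2.13 and 6.15 in CRISPRi foregut. Both pairs of groups overlapped. Solo LTRs without a site overlapped in endoderm as well, with 2.28 ± 0.24 RPM in control and 2.6 ± 0.7 in CRISPRi (SD, n = 3 each), and measured 1.41 and 0.94 in control and 0.44 and 0.34 in CRISPRi foregut, without overlap. Proviruses with a T13C site, in contrast, measured 5.24, 4.09 and 4.40 RPM in control and 1.32, 1.22 and 1.29 in CRISPRi endoderm without overlap. The provirus beside PRODH gave 570 of the 801 reads of these 30 proviruses. Alone it had a mean of 2.46 RPM in control and 0.58 in CRISPRi endoderm, where all 30 together had 4.57 and 1.28. The 6 proviruses with a perfect site, of which only the one beside ENSA had reads, measured 1.93 ± 0.21 RPM in control and 1.02 ± 0.51 in CRISPRi endoderm (SD, n = 3 each). Their libraries, at 1.93, 2.14 and 1.71 against 1.26, 1.38 and 0.43 RPM, did not overlap either.

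The genes near LTR5_Hs that edgeR called with the sgRNA, with all libraries in the fit, were lower. Of 487 protein-coding genes tested with a start within 50 kb of a member, 4 were called lower in CRISPRi endoderm and 0 higher, where 0.0399% and 0.00665% of all 15030 protein-coding genes were. In foregut 7 of 491 were called lower and 0 higher, against 0.145% and 0.0462%. With a perfect-site member within 50 kb these counts were 2 of 70 and 6 of 72. The median difference near members was -0.05 in endoderm and -0.20 in foregut (-0.04 for all genes in both), and -0.24 and -0.36 near perfect-site members. These genes were named after their values were seen. The counts depended on the tool and the libraries: in endoderm DESeq2 called 10 genes near members, voom 1 and fits without 1 library 1 to 4, and in foregut they called 4, 2 and 3 to 20. Of the 10 and of the 20 (without CRISPRi replicate 1), 1 gene each was higher.

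In endoderm the 4 genes were HLA-DQB1, PRODH, CST1 and SERPINB9. CST1, a salivary cysteine protease inhibitor, lies 4.6 kb from a perfect-site provirus (chr20:23736504-23737884) that had 0 reads in every library. CST1 measured 0.59 and 0.58 CPM in hESC, 22.83, 18.02 and 9.04 in control endoderm, 1.38, 2.09 and 3.45 in CRISPRi endoderm, 24.29 and 36.12 in control foregut and 1.19 and 0 in CRISPRi foregut. It fell in endoderm (log2 -2.85, SE 0.37, edgeR adjusted p = 0.034), which voom (0.0585) and 4 of 6 fits without 1 library (up to 0.114) did not call, and in foregut (-5.40, SE 0.58, edgeR adjusted p = 2.84e-17), where DESeq2 gave an adjusted p of 0.895 and voom 0.293. SERPINB9, an inhibitor of granzyme B, lies 5.4 kb from a solo LTR without a site (chr6:2908897-2909864, 1 read in all). It measured 250.43, 211.01 and 143.38 CPM in control and 35.77, 84.04 and 54.04 in CRISPRi endoderm (-1.79, SE 0.26, edgeR adjusted p = 0.0373, 0.0585 with voom and up to 0.231 without 1 library). In foregut it measured 37.87 and 15.18 against 14.0 and 15.18, so that the groups met at 15.18.

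In foregut the called genes other than CST1 and PRODH lay beside 3 perfect-site solo LTRs with 0 or 2 reads. GSTA2, a glutathione S-transferase of liver and gut, holds a perfect-site solo LTR 0.7 kb from its start (chr6:52626628-52627596, 0 reads), and GSTA1 starts 41.1 kb from the same LTR. GSTA2 measured 29.17 and 21.05 CPM in control and 0.44 and 0.05 in CRISPRi foregut (log2 -6.46, SE 0.66, edgeR adjusted p = 6.26e-19, 0.365 with voom). GSTA1 measured 131.09 and 123.36 against 38.4 and 50.21 (-1.52, SE 0.35, edgeR adjusted p = 0.00986). The GSTA1 call was lost with the replicate block (0.281) and in all 4 fits without 1 library (0.052 to 0.441). Both were below 2 CPM in every hESC and endoderm library. Their sequences are alike, so that reads can be shared or lost between them.

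RTL8C and RTL8B, genes on the X chromosome that derive from an older retrotransposon, start 1.0 and 7.8 kb from a perfect-site solo LTR (chrX:134164375-134165335) that had 0 reads. RTL8C measured 50.55 and 56.61 CPM in hESC, 46.68, 54.66 and 53.0 in control endoderm, 15.96, 26.13 and 21.84 in CRISPRi endoderm, 138.29 and 175.39 in control foregut and 17.17 and 12.73 in CRISPRi foregut. It fell 10.01-fold in foregut (log2 -3.32, SE 0.37, edgeR adjusted p = 1.43e-15, under 0.05 in all 8 alternatives). In endoderm it lay below control without overlap (-1.26, SE 0.20) and just missed the limit (edgeR adjusted p = 0.0525). RTL8B fell in foregut (-1.81, SE 0.45, edgeR adjusted p = 0.0385) and overlapped in endoderm. The RTL8B call was lost with DESeq2 (0.0982), voom (0.401), the replicate block (0.408) and in 3 of 4 fits without 1 library (up to 1), all but that without CRISPRi replicate 1. These genes are near-copies of each other, with the same caution on reads.

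ITLN2, an intestinal lectin, holds a perfect-site solo LTR 5.0 kb from its start (chr1:160918615-160919581, 2 reads in all, across an lncRNA exon). It measured 16.67 and 15.96 CPM in control and 2.2 and 0 in CRISPRi foregut (log2 -3.68, SE 0.64, edgeR adjusted p = 9.35e-06, 1 with DESeq2, 0.772 with voom and 0.167 without control replicate 1) and 2.69, 5.57 and 5.37 against 1.26, 2.24 and 2.07 in endoderm (-1.28, SE 0.35, edgeR adjusted p = 0.444). PDX1, a foregut marker, also fell in CRISPRi foregut, with 25.49 and 25.89 CPM in control and 2.42 and 8.50 in CRISPRi (log2 -2.30, SE 0.49, edgeR adjusted p = 0.00219). It was the only one called of the 9 foregut markers tested, whose sums were 440.6 to 513.2 CPM in control and 305.8 to 473.2 in CRISPRi foregut, and its part in these results was not tested.

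The comparisons of cell types called near members in both directions. From hESC to control endoderm, 76 of 490 genes near members were called higher and 54 lower, against 15.3% and 13.9% of all protein-coding genes, and from control endoderm to control foregut 85 of 507 were higher and 83 lower, against 16.7% and 17.1%. Near perfect-site members 13 of 74 were higher and 2 lower in the first comparison, and 12 of 74 higher and 18 lower in the second, given here without a test.

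Where a member lies went with whether it was read. Solo LTRs in introns had a read in 15 of 34 cases (44.1%) when they lay in sense to the gene and in 17 of 104 (16.3%) when antisense, against 75 of 364 (20.6%) outside protein-coding genes. Solo LTRs with a read lay at a median of 16050 bp from the nearest protein-coding start (n = 118) and those without at 42630 bp (n = 420). Of 13 proviruses that overlap exons, 10 had reads (994 in all), against 6 of 18 outside genes and 6 of 11 in introns, all of the latter antisense. Strand use in counting is not given in the sources used here, so that reads of a host or antisense transcript and of the member cannot be told apart. A member with 0 reads in all libraries was not detectable at this depth.

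The factors known to act at LTR5 or in the lineage differed between the cell types, and none was called with the sgRNA. Of 12 listed factors 11 were tested between hESC and control endoderm, and 7 rose and 2 fell, where 14.2% of all genes were called higher and 11.8% lower. GATA6 was at 0 CPM in hESC and at 440.35, 327.43 and 330.35 in control endoderm, and GATA4 and SOX17 were likewise at 0 in hESC. EOMES rose (log2 7.22, SE 0.25, edgeR adjusted p = 5.61e-11), as did KLF5, FOXA2 and TFAP2C, while SOX2 fell (-2.73, SE 0.23, edgeR adjusted p = 2.21e-07) with KLF4. POU5F1 was not called (0.79, under the 2-fold limit). With the sgRNA, 0 of 11 were called in endoderm (0.0049% of all genes higher, 0.0294% lower) and 0 of 10 in foregut (0.0499% and 0.115%) by edgeR. In control foregut against control endoderm, 3 were higher and 6 lower (14.1% and 15% of all genes), among them POU5F1 (-7.73, SE 0.35, edgeR adjusted p = 2.45e-06) and EOMES (-8.59, SE 0.38, edgeR adjusted p = 2.4e-06).

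Of 14 genes of retroviral silencing and DNA methylation, which include the demethylating enzyme TET1, DNMT3B, a de novo DNA methyltransferase, fell from hESC to control endoderm (log2 -2.45, SE 0.19, edgeR adjusted p = 7.32e-08), as did MORC2, a partner of the HUSH silencing complex (-1.03, SE 0.20, edgeR adjusted p = 0.000702), and 0 rose, so that 2 of 14 were lower where 11.8% of all genes were. TRIM28 measured 1168.66 and 1249.54 CPM in hESC and 631.49, 797.66 and 721.58 in control endoderm (-0.68, SE 0.17, under the 2-fold limit). None was called with the sgRNA in either tissue by edgeR. In control foregut against control endoderm TET1, DNMT1 and DNMT3B fell (3 of 14, against 15% of all genes) and 0 rose, with DNMT3B at 19.30 and 19.51 CPM in control foregut and 187.18, 257.12 and 188.56 in control endoderm.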

How the data were processed

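Bulk RNA-seq of 12 libraries was used, grouped by the sample titles. Per the paper's methods, the authors made libraries with a stranded mRNA kit, mapped reads with Hisat2 to hg19, counted unique reads over genes and TE integrants with featureCounts, merged LTR and internal fragments into integrants, and deposited these raw counts. The gastruloid data were not used here, and 0 columns of unknown samples were present.

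Members were found by name. RPM and CPM are per gene read total. Tests used edgeR (4.0.16) quasi-likelihood fits on the 2 groups of each comparison, with TMM library sizes from genes, at least 3 reads in 1 or more libraries and, for integrants, no overlap with a GENCODE exon (an annotation newer than the authors'). Called means a Benjamini-Hochberg adjusted p under 0.05 over all features and a change over 2-fold. For TE names it means the adjusted p alone, so that shares of names and of integrants or genes are not alike. Name sums hold all reads of integrants with the same set of name parts, exons included, which joins a few names that differ only in order or repeats. An SE is the log2 fold change over the root of F. A fold against a group at 0 uses 3 reads over the group as its floor, which covers counting error only. DESeq2 (1.42.0), voom in limma (3.58.1) and the alternatives of the closing section were run beside it, in R (4.3.3). The fits were tested on simulated data.

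sgRNA sites, motifs and windows of 75 bases were read in Python (3.11.15) from the GRCh37 sequence, and 28 members on sequences not used here were left out of these. Neighbouring genes are protein-coding genes with a start within 50 kb. Named were the 8 solo LTRs and 8 proviruses of highest mean RPM over groups, every called member (up to 10 a direction) and the 3 smallest p of non-overlapping groups per direction; genes called near members were named after their values were seen. Members on the Y chromosome are not reported singly. The members and lists were chosen with earlier results of these data known. Same-numbered libraries did not deviate together (correlations -0.112 to 0.035), so that numbers were not taken as pairs.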

Additional observations from a re-analysis of the deposited data

How the results depend on the processing

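Of 260 values for 20 results under alternative settings, 208 kept their direction, their side of the threshold or, for counts and untested values, their size. Members called in control endoderm against hESC were 7 at an unadjusted p, 1 with all groups in 1 fit and 4 without any 1 library. With the sgRNA in endoderm they were 0 with DESeq2, with all groups in 1 fit and without any 1 library. In control foregut against control endoderm they were 8 with exon-overlapping integrants kept, 3 with voom, 0 with DESeq2, with 1 read as the minimum and with all groups in 1 fit, and 0 to 9 without 1 library (9 without foregut control replicate 1). For the interaction voom called 1. The cause was not tested.

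The log2 difference of summed proviruses between control endoderm and hESC turned to 0.74 without the provirus beside PRODH, an alternative chosen after seeing the data, and ran from -0.87 to -0.51 without 1 library, with an adjusted p of 0.0339 without control endoderm replicate 1. With the sgRNA in endoderm it was -1.42 with DESeq2, -1.53 with TE library sizes, -1.42 with 1 read as the minimum, all past the threshold, and -1.55 to -1.26 without 1 library. In foregut it reversed to 5.85 without exon-overlapping integrants, and ran from -6.59 to 3.01 without 1 library (3.01 without control replicate 1, 0.28 without CRISPRi replicate 2). Control foregut against control endoderm gave -6.01 without exon-overlapping integrants and -7.76 to -3.07 without 1 library.

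For solo LTRs with a perfect site, the log2 ratio with the sgRNA in endoderm was -0.41 with up to 1 mismatch, -0.39 with up to 2, -0.45 without the LTR beside HLA-DQB1 and -1.24 to -0.81 without 1 library; in foregut it was -0.36, -0.27 and -3.24 to -1.66. Genes called near members in control endoderm against hESC were 54 within 20 kb, 260 within 100 kb and 109 to 134 without 1 library, and in control foregut against control endoderm 78, 325 and 137 to 201. With the sgRNA in endoderm they were 10 with DESeq2, 1 with voom and 1 to 4 without 1 library, and in foregut 4, 2 and 3 to 20 (20 without CRISPRi replicate 1). The alternatives in test and libraries for genes were chosen after seeing the data.

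With the replicate number as a block, 0 members were called in control foregut against control endoderm, 4 genes near members in foregut with the sgRNA and 4 in endoderm, and the LTR beside HLA-DQB1 had an adjusted p of 0.00795 in edgeR. With the foregut numbers crossed, 0 members and 9 genes near members were called. Depth limits all single members: 140 of 608 had any read.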
